A study of Fragaria x ananassa with 21 samples.

Results

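The small RNAs miR159 and miR319 were followed through ripening strawberry receptacle, the fleshy part of the fruit (Fragaria x ananassa 'Toyonoka'). Their members were the distinct sequences of the small RNA table whose name holds miR159 or miR319, together with every transcript predicted as a target under those names and the degradome reads at the predicted cuts. This gave 8 sequences of 1735, namely 5 miR159 and 3 miR319 sequences, and 17 target transcripts of 109953 unigenes. All 17 targets were listed under a miR319 name and 0 under a miR159 name, and 2 of them had degradome reads at the site, out of 733 sites with reads in the whole table.

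All fruits were injected on the plant, by way of the stalk, with a volume of 100 μL. The ABA groups got the hormone at 1 μM. The NDGA groups got nordihydroguaiaretic acid, a blocker of ABA synthesis, at 100 μM, and the CK groups got water. The ABA5, NDGA5 and CK5 receptacles were taken on day 5, the ABA8, NDGA8 and CK8 receptacles on day 8, and CK0 was the water-treated fruit of day 0. Achenes, the dry fruits on the surface, had been removed. By the paper, the initial red stage came on day 5 with ABA and on day 8 with water. Groups of the same day thus differed in ripeness as well as in treatment. Each of the 7 conditions had 1 library in each of 3 assays, the transcriptome, small RNA and the degradome, made from pooled RNA. The labels give 10 fruits a group, extracted singly and mixed in equal amounts, and the methods describe several such sets of fruits pooled before the library. There were no replicates, so no p-value was computed between conditions, and intervals are exact 95% intervals that cover counting error only. No library came from fruit without an injection. The series' design text names another day for ABA8 and another treatment for NDGA5 than the sample labels, and the labels were used.

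miR159 and miR319 are related plant miRNAs with similar mature sequences that direct the cutting of different mRNAs. In Arabidopsis, miR159 acts on mRNAs of GAMYB-type MYB transcription factors, which serve gibberellin and ABA responses, and ABA raises miR159 in germinating seeds. In the same species, miR319 acts on mRNAs of TCP transcription factors, which hold back cell division in growing leaves and petals. A plant miRNA usually cuts its target opposite its own bases 10 and 11, and the degradome assay sequences the ends that such cuts leave.

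The 4 sequences that reached 50 normalized reads somewhere are shown because all level differences rest on them. The first is the miR159 from the 3' arm of its precursor, the next the sequence from the opposite arm, and the last pair are the miR319 sequences. Each is written 5' to 3' as DNA, as deposited, with the seed (bases 2 to 8) in capitals.
lus-miR159b_R+2_1ss21CA: tTTGGATTgaagggagctctatt
gma-miR159a-5p_1ss20TA: gAGCTCCTtgaagtccaatag
mdm-miR319a_R-1_1ss20CT: tTGGACTGaagggagctcct
zma-miR319a-3p_R+1_1ss20CT: tTGGACTGaagggtgctcctt

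The names are those of the nearest known miRNA of flax (lus), soybean (gma), apple (mdm) or maize (zma), with the differences in length and base appended. Counted from base 1 of the known sequence, the substitutions were C21A in lus-miR159b, T20A in gma-miR159a-5p and C20T in both miR319 sequences. The miR159 3p sequence had 23 bases, and its first 21 were the same as the arm marked in the soybean precursor given beside the 5p sequence, so it was 2 bases longer than that arm. The 2 miR319 sequences shared the seed TGGACTG, which no other sequence of the table carried, and differed over 20 aligned bases by A14T, with positions counted in mdm-miR319a. The authors split reads that fit several entries, so the division between these near-identical sequences is uncertain. Set against lus-miR159b one base further in, mdm-miR319a was the same at 17 of 20 bases, with T7C, T20C and A21T counted in the miR159 sequence. T7C lies in the miR159 seed, so the seeds of the families differ.

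Only mdm-miR319a had a genome position, on the plus strand of LG1 from 2094285 to 2094384, in a build not given in the sources used here. Its predicted precursor of 100 bases is shown because it holds the sequence behind every listed target, here in capitals.
mdm-miR319a precursor: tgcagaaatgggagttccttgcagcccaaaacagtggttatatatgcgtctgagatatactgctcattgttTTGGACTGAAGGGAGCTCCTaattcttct

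The other 4 sequences were sparse and reached at most 4.22 normalized reads in any library. They were smo-miR159_L-1R+3_1ss20CT, zma-miR159a-3p_R-3_1ss8TC, gma-miR159d_1ss16GA and zma-miR319a-5p_L+1R+1_1ss7CT, and no fold change is given for them. gma-miR159d had 1 read, in CK8.

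The miR159 3p sequence was most abundant in both ABA libraries. It had 541 normalized reads in CK0 on day 0. Day 5 gave 2639.6 in ABA5, 1465 in NDGA5 and 1083 in CK5. Day 8 gave 3229.6 in ABA8, 1523 in NDGA8 and 567 in CK8. Normalized reads are the authors' estimated reads times 1 factor per library. Both ABA libraries thus stood above all 5 others, the NDGA libraries came next, and the level in CK8 was close to that in CK0.

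A difference was called when it reached 2-fold after adding 1 normalized read, with at least 10 in a library. The miR159 3p sequence was 2.44-fold higher in ABA5 relative to CK5 (interval 2.28 to 2.61), and 5.69-fold higher in ABA8 relative to CK8 (5.25 to 6.18). In NDGA8 it was 2.68-fold higher than in CK8 (2.47 to 2.92), and in NDGA5 it was 1.35-fold above CK5 (1.26 to 1.45), which was not called. The synthesis blocker and the hormone thus lay on the same side of water on both days, in comparisons that share their CK library. On the NDGA side the size depended on the normalization. As a share of the reads in the table, the log2 ratio of the summed miR159 sequences was 0.038 in NDGA5 over CK5 and 0.23 in NDGA8 over CK8. ABA8 stood 2.12-fold above NDGA8 and was called, and ABA5 1.80-fold above NDGA5 and was not. In water-treated fruit the sequence was 2.00-fold higher in CK5 relative to CK0 (1.79 to 2.25), just short of a call, and 1.91-fold lower in CK8 relative to CK5.

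The miR159 5p sequence, the partner strand of the duplex, stayed within 2-fold between treatments. It had 167 normalized reads in CK0. On day 5 it had 406 in ABA5, 347 in NDGA5 and 312 in CK5, and on day 8 it had 354 in ABA8, 245 in NDGA8 and 334 in CK8. None of its 9 comparisons was called, with ABA5 1.30-fold above CK5 (1.12 to 1.51) and ABA8 1.06-fold above CK8 (0.911 to 1.24). CK0 was the lowest library, 1.86-fold below CK5. The ratio of 3p to 5p reads was 3.24 in CK0, 6.50 in ABA5, 4.22 in NDGA5, 3.47 in CK5, 9.12 in ABA8, 6.22 in NDGA8 and 1.70 in CK8. The ABA libraries and NDGA8 thus had the most 3p reads per 5p read, and CK8 the fewest.

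**Figure D1:**
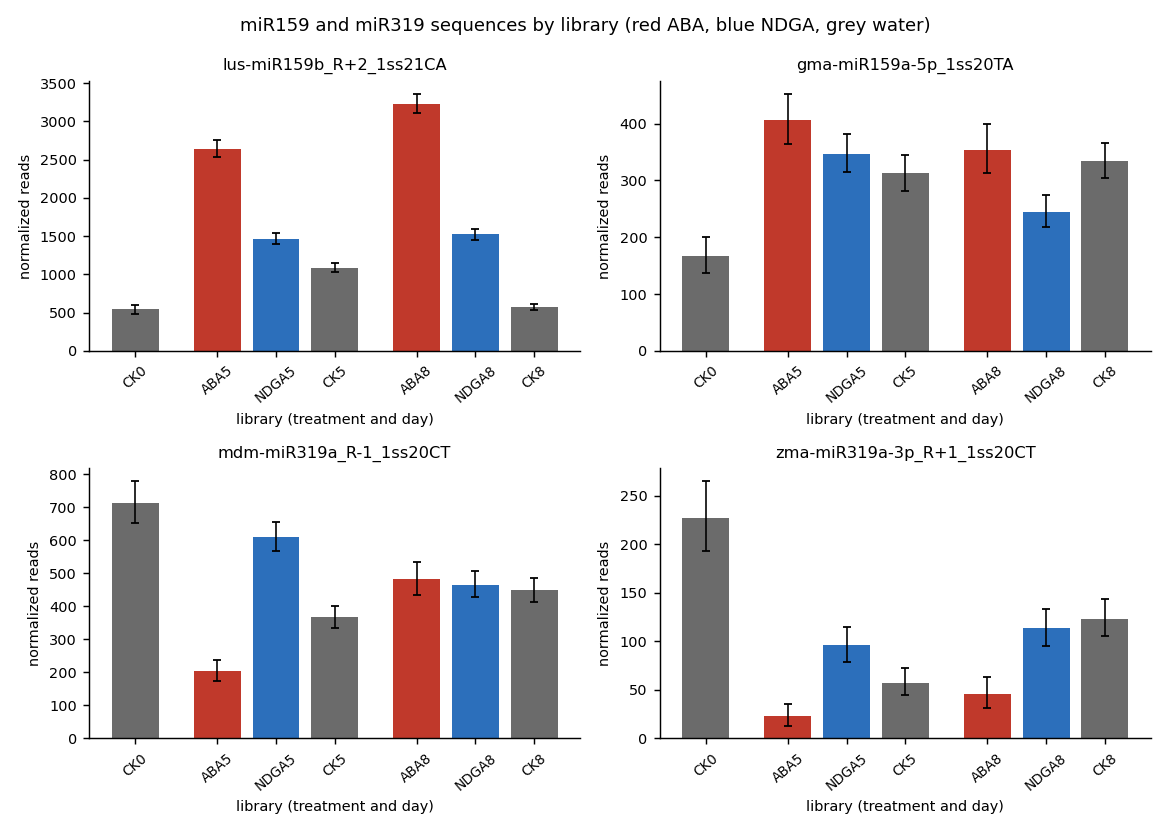
Normalized reads (vertical axes, from 0) of the 4 abundant sequences in the 7 libraries, with red bars for ABA, blue for NDGA and grey for water, and lines for the exact 95% counting interval. The miR159 3p sequence is highest in the ABA libraries (2639.6 and 3229.6), whereas zma-miR319a-3p is lowest there (22.5 and 45.4).

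The more abundant miR319 sequence, mdm-miR319a, was highest on day 0. It had 713 normalized reads in CK0. Day 5 gave 202 in ABA5, 610.1 in NDGA5 and 366 in CK5, and day 8 gave 481 in ABA8, 466 in NDGA8 and 448 in CK8. The day 5 libraries were spread out and the day 8 libraries lay close together. ABA5 was 1.81-fold lower than CK5 (1.51 to 2.18), which was not called, NDGA5 was 1.66-fold higher than CK5 (1.48 to 1.87), also not called, and ABA5 was 3.00-fold lower than NDGA5 (2.54 to 3.59), which was called. On day 8, ABA8 and CK8 differed by 1.07-fold (0.94 to 1.22).

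The second miR319 sequence, zma-miR319a-3p, was the scarcer one and showed the wider swings. It had 227 normalized reads in CK0. The day 5 libraries had 22.5 in ABA5, 95.6 in NDGA5 and 57.4 in CK5, and the day 8 libraries 45.4 in ABA8, 113 in NDGA8 and 123 in CK8. Both ABA libraries were the lowest of the 7. It was 2.49-fold lower in ABA5 relative to CK5 (1.53 to 4.62) and 2.68-fold lower in ABA8 relative to CK8 (1.88 to 4.03). NDGA5 was 1.65-fold above CK5 and NDGA8 1.09-fold below CK8, neither of which was called. ABA5 was 4.11-fold below NDGA5 (2.62 to 7.55) and ABA8 2.47-fold below NDGA8 (1.71 to 3.72), and both were called. In water-treated fruit it was 3.90-fold lower in CK5 relative to CK0 (2.98 to 5.32) and 2.12-fold higher in CK8 relative to CK5 (1.62 to 2.89).

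**Figure D2:**
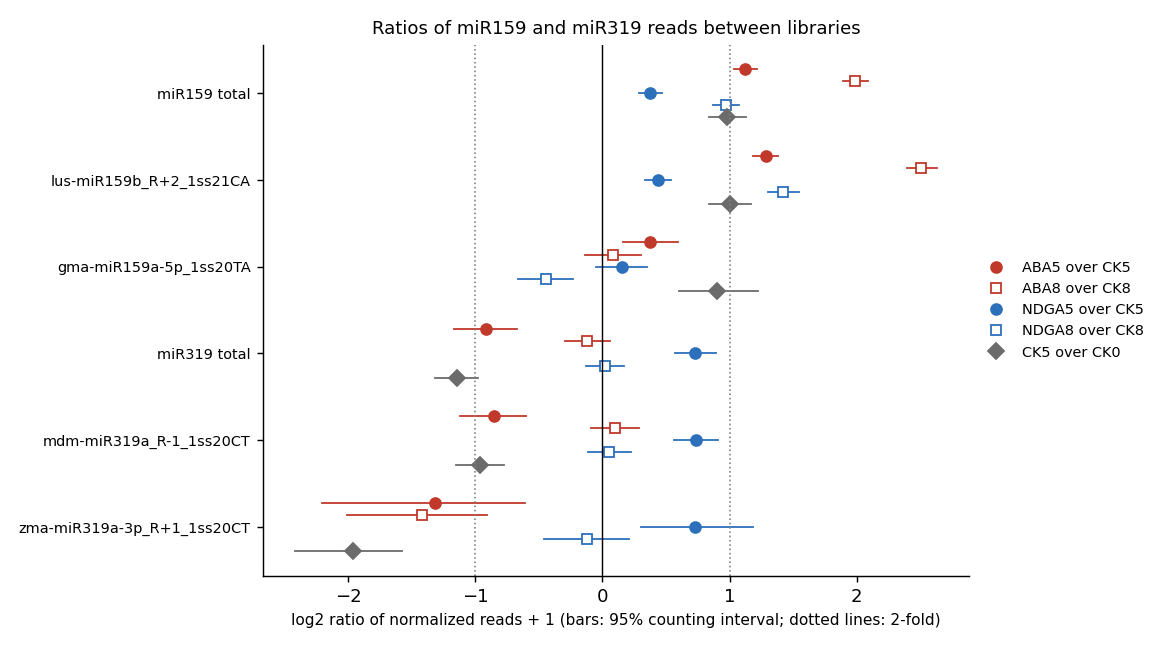
Log2 ratio of normalized reads plus 1 (horizontal axis) for the family totals and the 4 abundant sequences, in 4 comparisons of treatment with water and in CK5 over CK0, with bars for the 95% counting interval and dotted lines at 2-fold. Ratios of the miR159 total lie to the right of 0 in all 5 comparisons, from 0.38 to 1.99, and those of the miR319 total run from -1.14 to 0.73.

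Over the 4 sequences that could be called, ABA5 over CK5 gave 1 higher and 1 lower, against 34.5% higher and 15.1% lower among all 232 sequences tested. In ABA8 over CK8 it was again 1 higher and 1 lower, against 33% and 31.6% of 206 sequences. NDGA5 over CK5 gave 0 calls, with 18.8% called in either direction among all sequences, and NDGA8 over CK8 gave 1 higher, against 20.2%. ABA5 over NDGA5 gave 2 lower, the 2 miR319 sequences (16.7% of all), and ABA8 over NDGA8 gave 1 higher (23.5%) and 1 lower (17%). Counts of this size among 4 sequences do not set these miRNAs apart from the rest of the table. In CK5 over CK0, 1 was lower (16.5% of all), in CK8 over CK5, 1 was higher (18.9%), and in CK8 over CK0, 0 were called (40.3% in either direction). The median log2 ratio over all tested sequences was 0.32 in ABA5 over CK5 and -0.07 in ABA8 over CK8, and after rescaling by the median ratio the miR159 total of ABA5 over CK5 was 0.97, just under the rule.

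Summed over members, miR159 had 709 normalized reads in CK0. The sums were 3049 in ABA5, 1817 in NDGA5 and 1398 in CK5 on day 5, and 3591 in ABA8, 1769 in NDGA8 and 904 in CK8 on day 8. The total was 2.18-fold higher in ABA5 relative to CK5 (2.05 to 2.32) and 3.97-fold higher in ABA8 relative to CK8 (3.71 to 4.25). It was 1.96-fold higher in NDGA8 relative to CK8 (1.82 to 2.10) and 1.30-fold higher in NDGA5 relative to CK5 (1.22 to 1.38), and neither was called. In ABA8 it was 2.03-fold above NDGA8 (1.92 to 2.15). As a share of the reads in the table, the NDGA8 over CK8 log2 ratio was 0.23 in place of 0.97.

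miR319 summed to 941 normalized reads in CK0. On day 5 it summed to 225 in ABA5, 707 in NDGA5 and 425 in CK5, and on day 8 to 527 in ABA8, 580.0 in NDGA8 and 572 in CK8. The total was 2.21-fold lower in CK5 relative to CK0 (1.97 to 2.49) and 3.12-fold lower in ABA5 relative to NDGA5 (2.67 to 3.69). ABA5 was 1.88-fold lower than CK5 (1.59 to 2.24), not called, and ABA8 was 1.09-fold lower than CK8 (0.961 to 1.23). As a share of the reads in the table, ABA5 over NDGA5 was -0.80 on the log2 scale, and by the most abundant sequence alone CK5 over CK0 was -0.96, so both calls were lost. The miR159 total divided by the miR319 total was 0.754 in CK0, 13.5 in ABA5, 2.57 in NDGA5, 3.29 in CK5, 6.82 in ABA8, 3.05 in NDGA8 and 1.58 in CK8. CK0 was thus the one library in which miR319 outweighed miR159, and ABA5 lay at the other end.

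By likeness over the 7 libraries, the sequences of other families most like the miR159 3p sequence were mdm-miR827_1ss17GA (Pearson r 0.963 of log2 normalized reads plus 1), mdm-miR1511_R-1_1ss20AT (0.921) and mdm-miR393a_1ss21CT (0.918), out of 83 candidates. For mdm-miR319a they were mtr-miR396a-3p_L-1_1ss20GC (0.779), lus-miR395a (0.624) and mtr-miR5213-5p_2ss2AG5TA (0.610). The 2 miR319 sequences had r 0.856 with each other, and the miR159 3p sequence had r -0.491 with mdm-miR319a and -0.811 with zma-miR319a-3p. These values describe 7 points that share their libraries and factors.

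The targets came next. All 17 were listed for a sequence named mtr-miR319a-3p_1ss20CT, whose letters are those of mdm-miR319a shown above. They lay in 14 Trinity components, groups of contigs that the assembler took as related forms. The alignment score, which in such tables grows with mismatches and whose scheme is not given in the sources used here, was 0 for 1 target, 3 for 2, 3.5 for 2 and 4 for 12. An annotation was given for 3 targets. It named collagen type IV for comp63130_c0_seq1, and acid phosphatase activity, a gene ontology term, for comp113954_c1_seq14 and comp113954_c1_seq2. The other 14, both cleaved targets included, had none, so which of them encode TCP or MYB proteins was not told by the files. The target with score 0, comp87862_c0_seq1, had no site reads and at most 0.533 RPKM (reads per kilobase of transcript and 1000000 reads), in CK0.

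Both targets with site reads had an alignment score of 3. In comp120317_c0_seq1, a unigene of 2875 bases, the pairing spanned bases 2174 to 2193 and the reads began at base 2184. In comp109874_c2_seq2, of 738 bases, it spanned bases 76 to 95 and the reads began at base 86. Each start lay opposite base 10 of the miRNA. Both sites were in category 0 in all 7 libraries, as were 31 of the 733 sites (4.23%). Only 90 of the 733 sites had reads in all 7 libraries, and only such a site could be in category 0 in all of them. Category 0 usually means that no position of the transcript has more reads, and the authors' definition was not stated in the sources used here.

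The site in comp120317_c0_seq1 had 146 reads in CK0. On day 5 there were 10 in ABA5, 28 in NDGA5 and 12 in CK5, and on day 8 there were 6 in ABA8, 16 in NDGA8 and 28 in CK8. Libraries held between 13787038 and 40989117 reads, so levels were taken per 1000000000 library reads, a unit deposited as TPB. The level was 3562 TPB in CK0. It was 267 in ABA5, 1457 in NDGA5 and 654 in CK5 on day 5, and 261 in ABA8, 1161 in NDGA8 and 1207 in CK8 on day 8. CK0 was the highest library and the ABA libraries the lowest.

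The site in comp109874_c2_seq2 had 64 reads in CK0. On day 5 there were 15 in ABA5, 16 in NDGA5 and 21 in CK5, and on day 8 there were 6 in ABA8, 7 in NDGA8 and 17 in CK8. The level was 1561 TPB in CK0, then 401 in ABA5, 833 in NDGA5 and 1145 in CK5, and 261 in ABA8, 508 in NDGA8 and 733 in CK8. The order of CK0 and the ABA libraries was the same as at the first site, whereas NDGA5 and CK5 changed places.

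**Figure D3:**
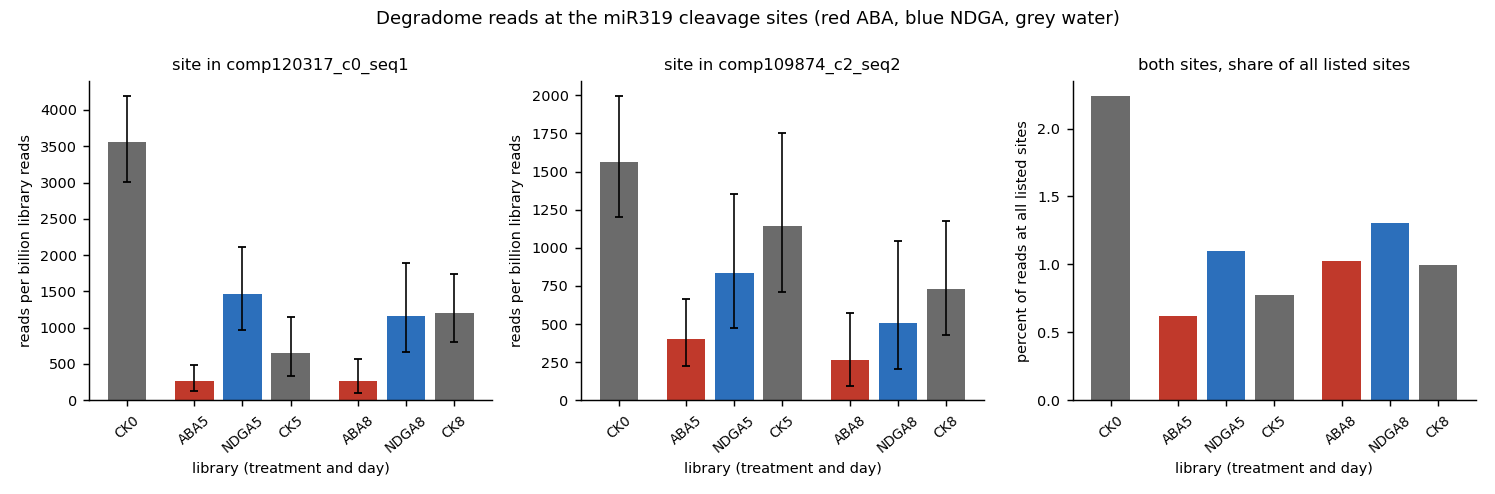
Degradome reads in TPB (per 1000000000 library reads, from 0) at the miR319 sites in comp120317_c0_seq1 and comp109874_c2_seq2 (left and middle, with 95% counting intervals) and the share of both sites in the reads at all 733 sites (right, percent), with red for ABA, blue for NDGA and grey for water. Both levels are highest in CK0 (3562 and 1561), and the share is 2.24% there and between 0.623% and 1.30% in the other libraries.

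As 1 sum, the sites were 2.81-fold lower in CK5 relative to CK0 (interval 1.97 to 4.25) and 2.61-fold lower in CK8 relative to CK0 (1.91 to 3.73). All other sites summed were 1.03-fold higher in CK5 and 1.16-fold lower in CK8. The median log2 ratio over the sites tested was -0.40 in CK5 over CK0 and -0.88 in CK8 over CK0, and after rescaling by a median ratio of sites the miR319 sum of CK8 over CK0 was -0.79 and no longer called. Of the sites tested, 32.1% were lower in CK5 than in CK0 and 42.6% in CK8 than in CK0. The first site was lower in both comparisons, the second in CK8 over CK0 alone.

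In ABA-treated fruit both sites summed were 2.60-fold lower in ABA5 relative to CK5 (1.55 to 4.72) and 3.52-fold lower in ABA8 relative to CK8 (1.93 to 7.70). Each site by itself was called lower on both days, although the interval of the first site in ABA5 over CK5 (0.969 to 6.32) included 1. Both sites in ABA8 and the first site in ABA5 lay under the minimum of 10 scaled reads. They passed through the CK library, so those calls could go only in the lower direction. All other sites were lower too, 2.16-fold in ABA5 and 3.81-fold in ABA8, and 34.6% and 66.7% of the sites tested were called lower. As a share of the reads at all listed sites, the miR319 sites took 0.623% in ABA5 against 0.774% in CK5, and 1.02% in ABA8 against 0.994% in CK8. By this share, the lower miR319 cleavage reads of ABA8 were of the size found in the summed reads of all sites. The part of the library in them was not tested. The median log2 ratio over the sites tested was -0.28 in ABA5 over CK5, against -1.38 for the miR319 sum. In ABA8 over CK8 it was -1.36, against -1.81. After rescaling by the median ratio of sites, ABA5 over CK5 was -0.63 on the log2 scale, with 0 sites called. ABA8 over CK8 was then -1.08, with 1 site called. With NDGA, the sum was 1.27-fold higher in NDGA5 relative to CK5 (0.792 to 2.06) and 1.16-fold lower in NDGA8 relative to CK8 (0.689 to 2.01), neither called. As a share of all listed sites the day 8 difference turned, to 1.30% in NDGA8 against 0.994% in CK8, a log2 ratio of 0.39. Of all sites tested, 27.3% were called in NDGA8 over CK8. At the first site by itself, NDGA5 was 2.16-fold above CK5 (1.10 to 4.81) and was called, against 17% of sites called higher.

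The transcript levels of the cleaved targets also were highest in CK0 and lowest in the ABA libraries. comp120317_c0_seq1 had 9.29 RPKM in CK0. On day 5 it had 1.91 in ABA5, 3.73 in NDGA5 and 2.79 in CK5, and on day 8 it had 1.03 in ABA8, 3.60 in NDGA8 and 3.00 in CK8. For transcripts a call required 1.5-fold after adding 0.1 RPKM, with at least 1 RPKM in a library. It was 2.73-fold lower in ABA8 relative to CK8 (2.51 to 3.37) and 3.25-fold lower in CK5 relative to CK0 (3.01 to 3.69), while ABA5 was 1.44-fold below CK5 (1.27 to 1.69) and was not called. In bulk tissue, fewer cells that hold a transcript and less of it per cell cannot be told apart.

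comp109874_c2_seq2 had 2.96 RPKM in CK0. On day 5 it had 0.624 in ABA5, 2.39 in NDGA5 and 1.58 in CK5, and on day 8 it had 0.623 in ABA8, 1.14 in NDGA8 and 1.18 in CK8. It was 2.32-fold lower in ABA5 relative to CK5 (1.61 to 4.07), 1.77-fold lower in ABA8 relative to CK8 (1.25 to 2.89) and 1.82-fold lower in CK5 relative to CK0 (1.39 to 2.54). NDGA5 was 1.48-fold above CK5 (1.13 to 2.04), just short of a call. Summed over the forms of comp109874_c2, NDGA5 was 1.85-fold above CK5 and was called.

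Other assembled forms of comp120317 did not share this pattern. comp120317_c0_seq4, for which no miR319 site was listed, had 47.7 RPKM in CK0, 119 in ABA5, 75.7 in NDGA5, 111 in CK5, 54.6 in ABA8, 62.8 in NDGA8 and 65.8 in CK8. comp120317_c0_seq22 moved in the same way, between 44.0 and 112 RPKM. The cleaved form made up 9.19% of the component's RPKM in CK0 and from 0.820% in ABA5 to 2.91% in NDGA8 otherwise. Summed over the component, CK5 lay above CK0 (log2 ratio 1.10), the reverse of the cleaved form. RPKM of forms that share sequence depends on how reads were divided, and the counting tool is not given in the sources used here.

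**Figure D4:**
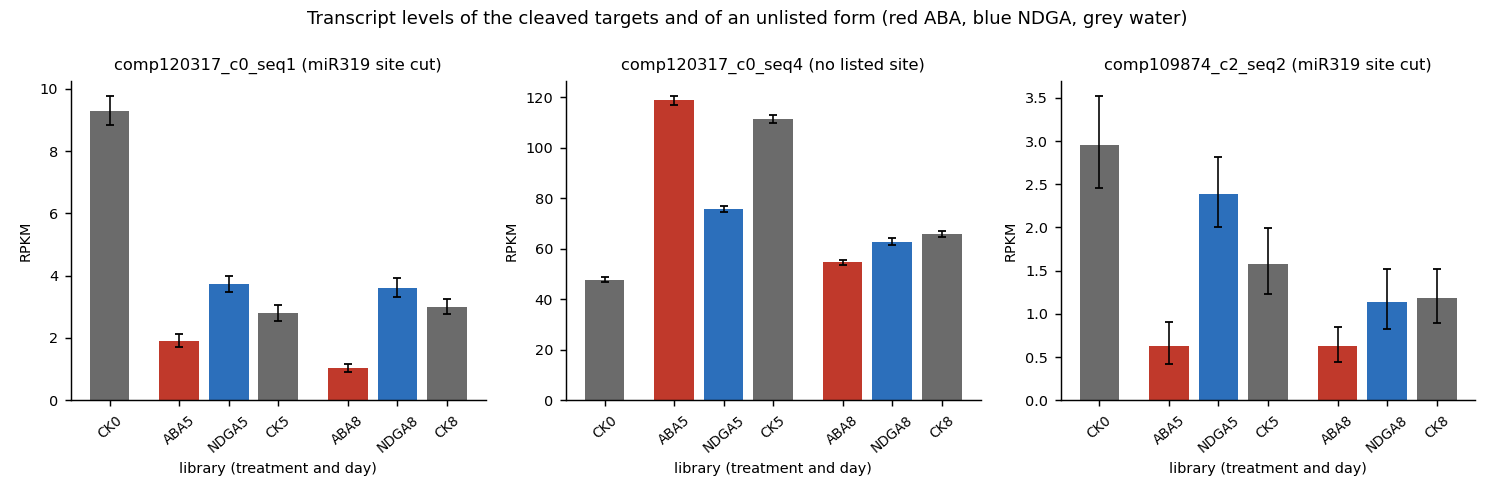
RPKM (vertical axes, from 0) of comp120317_c0_seq1, of its unlisted form comp120317_c0_seq4 and of comp109874_c2_seq2 in the 7 libraries, with 95% counting intervals. The cleaved forms are highest in CK0 (9.29 and 2.96 RPKM), where the unlisted form is lowest (47.7 RPKM).

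The level of cut ends relative to the transcript gave no common order. TPB at the site divided by RPKM was 383 in CK0, 140 in ABA5, 391 in NDGA5, 234 in CK5, 253 in ABA8, 322 in NDGA8 and 402 in CK8 for comp120317_c0_seq1. For comp109874_c2_seq2 it was 528 in CK0, 643 in ABA5, 349 in NDGA5, 725 in CK5, 420 in ABA8, 447 in NDGA8 and 622 in CK8. Each rests on as few as 6 site reads in a library.

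Over all targets, 12 of 17 had at least 1 RPKM in a library, in 9 components, and could be called, and 5 stayed below. In the comparisons of CK5 and CK8 with CK0, a target that reached 1 RPKM in CK0 alone could be called in the lower direction only, so the count was taken over targets with 1 RPKM or more in both libraries. In CK5 over CK0, 3 of 7 were lower and 0 higher, against 21.6% lower and 13.5% higher among all unigenes at that level in both. In CK8 over CK0 it was again 3 of 7 lower and 0 higher, against 23.3% and 13.7%. Counts this small among 7 targets do not set them apart from all unigenes. All 17 targets counted, 12 had their highest RPKM in CK0, a count for which no share over all unigenes was computed. It includes targets under 1 RPKM in every library, such as comp63130_c0_seq1, which had a value in 3 libraries only. Of the 12 with at least 1 RPKM in a library, 9 were highest in CK0, against 29.3% of 60396 unigenes at that level. Among these 9, comp63886_c0_seq1 and comp89201_c1_seq1 reached 1 RPKM in CK0 alone, so the minimum itself fixed their place. The 29.3% includes such unigenes too. The difference was not tested, and no conclusion is drawn from it. Several targets are forms of 1 component, such as comp108999_c0_seq2 and comp108999_c0_seq7, which were 3.59-fold and 3.39-fold lower in CK5 relative to CK0, so they are not separate genes in this count.

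Between treatments the targets mostly stayed within the rule. Of the targets that reached 1 RPKM in the comparison, 1 of 7 was lower in ABA5 than in CK5 (13% of all unigenes), and in ABA8 over CK8 2 of 10 were lower (36.1%) and 1 higher (18.7%). The higher one was comp104513_c0_seq4, with 1.98 RPKM in ABA8 and 0.866 in CK8. NDGA5 over CK5 had 0 of 9 called (26.6% in either direction), and NDGA8 over CK8 had 2 of 9 higher (20.7%). ABA5 over NDGA5 had 1 higher (17.8%) and 2 lower (20.2%) of 9, and ABA8 over NDGA8 had 1 higher (15.3%) and 3 lower (39.4%) of 10. Here too, a target that reached 1 RPKM in 1 of the libraries only could be called in 1 direction only. This held for comp109874_c2_seq2 in every comparison of ABA with CK or NDGA. It also held for comp104513_c0_seq4 in ABA8 over CK8 and over NDGA8, and for comp105136_c0_seq3 in ABA5 over NDGA5 and NDGA5 over CK5. For comp108999_c0_seq2 and comp108999_c0_seq7 it held in ABA8 over CK8, ABA5 over NDGA5 and both comparisons of NDGA with CK. The shares of all unigenes include such cases. Both cleaved targets were among the lower ones in each comparison of ABA with NDGA. For comp109874_c2_seq2 the call of ABA8 over NDGA8 was lost after rescaling, at -0.49 on the log2 scale, and with a pseudocount of 1 RPKM, at -0.40. For comp120317_c0_seq1, summed per component, ABA5 over NDGA5 turned to 0.64 and ABA8 over NDGA8 was -0.23, not called. The lower calls of ABA over CK were the cleaved targets too, comp109874_c2_seq2 on both days and comp120317_c0_seq1 on day 8. On day 8 comp109874_c2_seq2 was -0.42 with a pseudocount of 1 RPKM and comp120317_c0_seq1 was -0.29 summed per component, and neither was then called.

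Related genes could not be counted from annotation. Of 4233 unigenes with an annotation text, 0 carried the case-sensitive terms of the lists drawn up for GAMYB and TCP factors, the miRNA machinery, gibberellin and ABA signalling, achenes (the dry fruits on the receptacle) and vascular tissue. The tissue label was therefore not checked against markers. Depth differed between libraries, with 236619 (CK0) to 676812 (NDGA5) estimated reads in the small RNA table and 53653395 (NDGA8) to 89152239 (ABA8) transcriptome reads. ABA8 stood apart in the degradome, with 51184 TPB at all listed sites, against 107269 to 232516 in the others.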

How the data were processed

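Strawberry receptacle RNA was analysed in 21 libraries, 7 each for transcriptome, small RNA and degradome, with groups taken from the sample labels. The authors deposited an estimated count per small RNA sequence, with reads of several entries split, and a normalized score, which is that count times 1 factor per library. For the transcriptome, the authors deposited RPKM per unigene, made from an assembly with Trinity and TGICL after filtering by the NGS QC toolkit. For the degradome, the authors deposited a whole count of reads at each site, a normalized score and a score in reads per 1000000000 library reads (TPB). The normalized score of sites is not scaled by depth, contrary to what had been assumed, so TPB was used, set to the mean depth of 25125816 reads. The mapping and degradome tools, with their versions, and the genome build were not stated in the sources used here. The deposited p-values and FDR of the authors' comparisons were not used.

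Sequences listed in several rows took their highest value. Ratios were formed after adding 1 normalized or scaled read or 0.1 RPKM and called at 2-fold with a minimum of 10, or 1.5-fold with a minimum of 1 RPKM, in 9 comparisons. RPKM times length gave whole reads for 100% of positive values, within 0.02 reads or 2e-05 of the count, and intervals were made from these reads, with estimated small RNA reads rounded. Nothing was added to the reads for the intervals. They thus belong to the plain ratio, which differs somewhat from the printed fold where values are low. Reads are not independent molecules, so intervals can be too narrow. Named are sequences with at least 50 normalized reads and targets with at least 10 reads at a site in a library. Other names given, comp87862_c0_seq1, comp104513_c0_seq4, comp105136_c0_seq3, comp63130_c0_seq1, comp63886_c0_seq1, comp89201_c1_seq1 and the forms of comp108999 and comp113954, were chosen after their values were seen. So were the unlisted forms of comp120317 and the sum of comp109874_c2. The members, lists and rules were chosen with earlier results of these data known. The unigene calls of ABA5 over CK5 and the small RNA calls and intervals of ABA8 over CK8 were tried on simulated counts. Site calls, family totals and the splitting of reads were not simulated. Alternatives were other pseudocounts, minimums and folds, rescaling by a median ratio, whole site reads and sums per component. Shares of all sites and summed rows were added after seeing the data. Python 3.11.15, numpy 2.4.6, pandas 2.3.3, scipy 1.17.1 and matplotlib 3.10.9 were used.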

Additional observations from a re-analysis of the deposited data

Results flagged for a closer look

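One target went opposite ways on the 2 days under the same contrast. comp105136_c0_seq3 had 1.74 RPKM in ABA5 and 0.901 RPKM in NDGA5, a log2 ratio of 0.88, whereas on day 8 it had 1.61 RPKM in ABA8 and 2.63 RPKM in NDGA8, a log2 ratio of -0.67. NDGA5 lay under the minimum of 1 RPKM, so the day 5 call could go only in the higher direction. Each side rests on 1 library, with 81 to 164 reads, and the difference between days was not tested. No sample could be set against others of its group, since each group had 1 library.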

How the results depend on the processing

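Of 200 values recomputed for totals, counts and site sums, 132 held within their counting interval or within 1.5 times, 67 moved further and 1 called value changed sign. The log2 ratio of 5 values that were not called changed sign too. The causes were not tested, except where the alternative itself tests fewer or more features. No paired analysis was possible because each condition had 1 library per assay.

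As log2 ratios, the miR159 total rescaled by the median ratio was 0.97 in ABA5 over CK5, 1.21 in ABA8 over NDGA8 and 0.76 in CK5 over CK0, and the miR319 total was -1.36 in CK5 over CK0. As a share of the reads in the table, miR159 was 1.63 in ABA5 over CK5, 1.53 in ABA8 over CK8, 0.038 in NDGA5 over CK5, 0.23 in NDGA8 over CK8, 1.31 in ABA8 over NDGA8 and 0.63 in CK5 over CK0. On the same scale miR319 was -0.41 in ABA5 over CK5, -0.57 in ABA8 over CK8, 0.39 in NDGA5 over CK5, -0.72 in NDGA8 over CK8, -0.80 in ABA5 over NDGA5, no longer called, and -1.50 in CK5 over CK0. By the most abundant sequence alone, miR159 was 1.28 in ABA5 over CK5, 2.51 in ABA8 over CK8 and 1.42 in NDGA8 over CK8, and miR319 was 0.10 in ABA8 over CK8 and -0.96 in CK5 over CK0, no longer called.

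Sequences called at 1.5-fold numbered 2 in NDGA5 over CK5, 4 in CK5 over CK0, 2 in CK8 over CK5 and 3 in CK8 over CK0. With no minimum there were 4 in ABA8 over CK8, 1 in NDGA5 over CK5, 3 in CK8 over CK5 and 1 in CK8 over CK0. In CK5 over CK0 there were 2 with a pseudocount of 0.1 and 2 after rescaling.

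In whole site reads, not scaled by depth, the sum of both sites was -0.39 in ABA5 over CK5, -2.63 in CK5 over CK0 and -2.20 in CK8 over CK0, and the sites called numbered 0 in ABA5 over CK5, 1 in NDGA8 over CK8 and 2 in CK5 over CK0. Rescaled by the median ratio of sites, the sum was -0.63 in ABA5 over CK5 and -0.79 in CK8 over CK0, with 0 sites called in each and 1 in ABA8 over CK8. As a share of all listed sites, chosen after seeing the data, it was -0.31 in ABA5 over CK5 and 0.039 in ABA8 over CK8, the called value whose sign turned, and 0.39 in NDGA8 over CK8, where it turned as well. The miR319 total of NDGA8 over CK8, 0.02 as reported, was -0.072 after rescaling and -0.0050 with the rows of a sequence summed.

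Targets called with no minimum numbered 4 in ABA5 over CK5, 6 in ABA8 over CK8, 5 in NDGA5 over CK5, 5 in NDGA8 over CK8, 5 in ABA5 over NDGA5 and 8 in ABA8 over NDGA8. With a minimum of 5 RPKM they numbered 0 in ABA5 over CK5, ABA8 over CK8 and both comparisons of ABA with NDGA, 1 in NDGA8 over CK8, 1 in CK5 over CK0 and 2 in CK8 over CK0. After rescaling there were 2 in ABA5 over CK5, 1 in NDGA8 over CK8 and 2 in ABA8 over NDGA8. At 2-fold there were 0 in NDGA8 over CK8, 1 in ABA5 over NDGA5 and 2 in ABA8 over NDGA8. With a pseudocount of 1 RPKM there were 1 in NDGA8 over CK8 and 2 in ABA8 over NDGA8, and with 0.01 RPKM 1 in NDGA5 over CK5. Summed per component, there were 2 in NDGA5 over CK5 and 1 in NDGA8 over CK8, and comp120317_c0_seq1 turned to 0.64 in ABA5 over NDGA5, 1.10 in CK5 over CK0 and 0.36 in CK8 over CK0. The list of related genes had no member and was not recomputed.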
